A study of Mus musculus with 39 samples.

Results

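The suppressor of cytokine signalling genes Socs1, Socs2, Socs3 and Cish, the transcription factor gene Stat3, and the receptor genes Il6st, Osmr, Lifr and Il6ra were followed through 39 libraries of mouse hindlimb muscle and its stem cells. The 9 genes were taken by symbol, and all 9 were found in both deposited tables, among 16979 genes in the table of labelling and transcription inhibition (32 libraries) and 13938 genes in the table of fixation (7 libraries). All 9 also passed the filter on low values in every comparison. Levels are in RPKM, a read density that accounts for the length of the gene model and the size of the library. Levels of different genes compare only roughly, since reverse transcription was primed by oligo(dT) and the gene models run from 1220 bases (Socs1) to 12113 (Osmr). The tables were normalised separately, so no level was compared across them.

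The mice of the labelling experiment were Pax7CreER/+: UPRTHA/+, in which Cre driven from Pax7, the gene that marks muscle stem cells (satellite cells, MuSCs), switches on UPRT, an enzyme that lets a cell use 4-thiouracil (4tU), an analogue of uracil, for the RNA it makes. They received 4tU every 12 h for 4 d or for 1 d, or for 6 h, and the labelled RNA was pulled down from total hindlimb muscle RNA (4 d, 1 d and 6 h label, n = 4 each). Total RNA of hindlimb muscle, tagged as without 4tU labelling, was the whole-muscle group (n = 4), and the labels do not tie it to the muscle of 1 label time. Total RNA of purified stem cells was the isolated-cell group (n = 4), and RNA pulled down from purified cells that met 4tU during the isolation of about 6 h was the isolation label (n = 4). Stem cells were also isolated with the RNA polymerase II inhibitor alpha-amanitin or with DMSO (n = 4 each). In the fixation experiment, stem cells came from mice whose circulation was perfused with 1% paraformaldehyde (n = 4) or from unfixed mice (n = 3), for which the labels give no genotype; RNA of both was prepared with the kit meant for fixed tissue. Age was not stated for the animals, nor whether each replicate is an animal of its own, so the p-values rest on a spread between samples that may be technical.

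Recovered reads ran from 15307952 to 102619074 per library in 9 groups and from 2321903 to 7742378 in the isolation label, the shallowest group. The summed level of 10 satellite cell markers was 1385 to 1412 RPKM in isolated cells and 61.9 to 64.9 in whole muscle, and 65.9 to 170 in the libraries labelled in vivo. The summed level of 15 muscle fibre markers was 82605 to 169780 RPKM in the libraries labelled in vivo, against 89.9 to 320 in isolated cells. The RNA pulled down from whole muscle thus held fibre transcripts at high levels, and the share of its reads that came from labelled stem cells was not measured. No marker of the 6 lists (satellite cell, fibre, fibro-adipogenic, endothelial, immune and erythroid) that stood in a table was at 0 in every library of a group.

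Cytokines of the interleukin-6 family, among them IL-6, oncostatin M and LIF, signal through receptors that share gp130, the product of Il6st. IL-6 reaches gp130 through Il6ra, oncostatin M through Osmr, and LIF through Lifr. JAK kinases on the receptor then phosphorylate Stat3, which dimerises and activates genes that include Socs3. The Socs proteins and Cish close the loop: Socs1 inhibits JAK kinases directly, Socs3 binds gp130 together with the kinase, and Socs2 and Cish are best known for restraining growth hormone and other receptors that act through Stat5. In muscle, IL-6 and Stat3 signalling is known for its part in satellite cell activation and regeneration, and LIF and oncostatin M also act on satellite cells.

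On mm10, Socs1 lies at chr16:10783808-10785536, Socs2 at chr10:95385362-95417180, Socs3 at chr11:117966079-117970047 and Stat3 at chr11:100885098-100939540, all on the minus strand. Cish lies at chr9:107296026-107302784, Il6st at chr13:112464070-112510086 and Lifr at chr15:7129559-7197489 on the plus strand, and Osmr at chr15:6813577-6874969 and Il6ra at chr3:89869324-89913162 on the minus strand. Exons of Stat3 overlap those of Stat5a on the opposite strand over 72 bases, exons of Il6ra overlap Gm42809 over 242 bases, and exons of Cish overlap Gm17040 and Gm17041. Strand-aware counting is not stated in the labels, so reads of these overlaps may be shared. The level of Il6ra at 6 h below is uncertain to that extent.

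STAT dimers bind palindromes of the form TTCNNNGAA, and the promoters of the members were searched for it because the Socs genes are known targets of STATs. The motif reads the same on both strands, so a search of 1 strand covers both. Of the 9 genes, 8 had a window of 250 bases before to 50 bases after the RefSeq start (GRCm38.p6), and the motif was present for 2 of them, Socs3 and Cish, against 8.30% of all 32851 windows. The Socs3 stretch is the part of its window upstream of the first exon annotated inside it (chr11:117969452-117969616, minus strand, 165 bases), in an intron of a longer Socs3 transcript of GENCODE, with the motif in capitals 154 bases before the start. The Cish stretch is a site of 30 bases (chr9:107296656-107296685, plus strand), with its 2 motifs in capitals, the first at the start and the second 11 bases after it. A match is a sequence of letters and not a measured site of binding, and its absence says only that these letters are not in the window.
Socs3: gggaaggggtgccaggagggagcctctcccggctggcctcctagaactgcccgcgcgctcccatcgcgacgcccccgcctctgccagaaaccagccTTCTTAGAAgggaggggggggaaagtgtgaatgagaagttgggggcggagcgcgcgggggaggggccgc
Cish: gttTTCCTGGAAagTTCTTGGAAatctgtc

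In stem cells fixed before isolation, 6 of the 9 genes were lower than in unfixed cells, and Socs2, Lifr and Il6ra were not called in either direction. The comparison asks how the RNA of cells fixed in the animal differs from that of cells isolated without fixation. Socs3, the feedback inhibitor of gp130, had 205, 658 and 379 RPKM in the 3 unfixed libraries and 2.75, 7.27, 20.1 and 11.7 RPKM in the 4 fixed libraries. Every unfixed library stood above every fixed one, and the level was 41.6-fold lower after fixation (log2 difference -5.38 ± 0.59 (SE), limma adjusted p = 3.43e-04). Folds here and below come from log2(RPKM + 0.5) and so are smaller than the true ones where a gene is low, and each adjusted p is that of limma over all genes tested.

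Socs1, the inhibitor of the JAK kinases, was at 42.5, 48.1 and 50.6 RPKM in unfixed libraries and at 7.98, 6.75, 0.616 and 7.37 RPKM in fixed ones. The groups did not overlap, and the level was 9.85-fold lower (adjusted p = 0.00532 by limma). The lowest fixed library, replicate 4, rested on 17 reads for Socs1. Cish was at 3.51, 7.06 and 7.79 RPKM in unfixed and 1.98, 0.604, 0.737 and 0.365 RPKM in fixed libraries. It was 4.82-fold lower (limma adjusted p = 0.00540). Socs2 was the 1 suppressor of the 4 that was not called: its libraries were at 8.50, 14.1 and 9.70 RPKM unfixed and 7.01, 6.38, 5.09 and 18.7 RPKM fixed. The ranges overlapped through 1 fixed library, replicate 5, the highest of all, and the other 3 fixed libraries lay below every unfixed one. The log2 difference was -0.35 ± 0.42 (SE) (limma adjusted p = 0.582), and -0.74 without that library (limma adjusted p = 0.131). Whether Socs2 differed from the other suppressors in its response was not tested.

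Stat3, the transcription factor of the pathway, was at 136, 143 and 176 RPKM in unfixed and at 16.7, 17.1, 12.3 and 17.3 RPKM in fixed libraries. It was 9.36-fold lower, with the smallest adjusted p of the 9 (1.97e-05 by limma). Among the receptors, Il6st, which encodes gp130, had 41.6, 75.8 and 49.8 RPKM unfixed and 9.41, 15.6, 7.21 and 11.6 RPKM fixed, a 4.92-fold lower level (limma adjusted p = 8.19e-04). Osmr, the oncostatin M receptor, had 18.6, 29.9 and 23.6 RPKM unfixed and 0.965, 0.853, 1.23 and 1.97 RPKM fixed, a 14.1-fold lower level (limma adjusted p = 7.53e-05). In both genes the groups did not overlap.

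Lifr and Il6ra did not follow Osmr. Lifr, the LIF receptor, had 3.97, 8.61 and 7.86 RPKM in unfixed and 5.80, 4.55, 3.78 and 4.41 RPKM in fixed libraries, with overlapping groups (log2 difference -0.46 ± 0.33 (SE), limma adjusted p = 0.346). Il6ra, the IL-6 binding chain, had 2.03, 3.56 and 2.64 RPKM unfixed and 3.49, 2.95, 5.40 and 1.96 RPKM fixed, also overlapping (0.24 ± 0.37 (SE), limma adjusted p = 0.677).

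The count of 6 of 9 lower compares with 10.8% of the 12816 genes tested that were called lower (12.2% were higher). The 9 genes were chosen with earlier results of these data known, so the count is a description and no test of the set. In bulk samples, fewer cells of a type and less RNA per cell cannot be told apart. The RNA of cell type markers also differed with fixation: 9 of 10 endothelial markers were lower, with a summed level of 43.5 to 259 RPKM in fixed and 229 to 1382 in unfixed libraries. The summed satellite cell level was 890 to 1333 RPKM fixed and 2446 to 2926 unfixed (2 markers higher and 4 lower of 10), and 4 of 14 fibre markers and 4 of 10 fibro-adipogenic markers were lower. The summed immune level was 1456 RPKM in fixed replicate 4 and 165 to 226 in the other 3 fixed libraries, inside the unfixed range of 47.7 to 395 (2 markers higher and 1 lower of 12). The part of cell makeup in these differences was not tested.

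**Figure D1:**
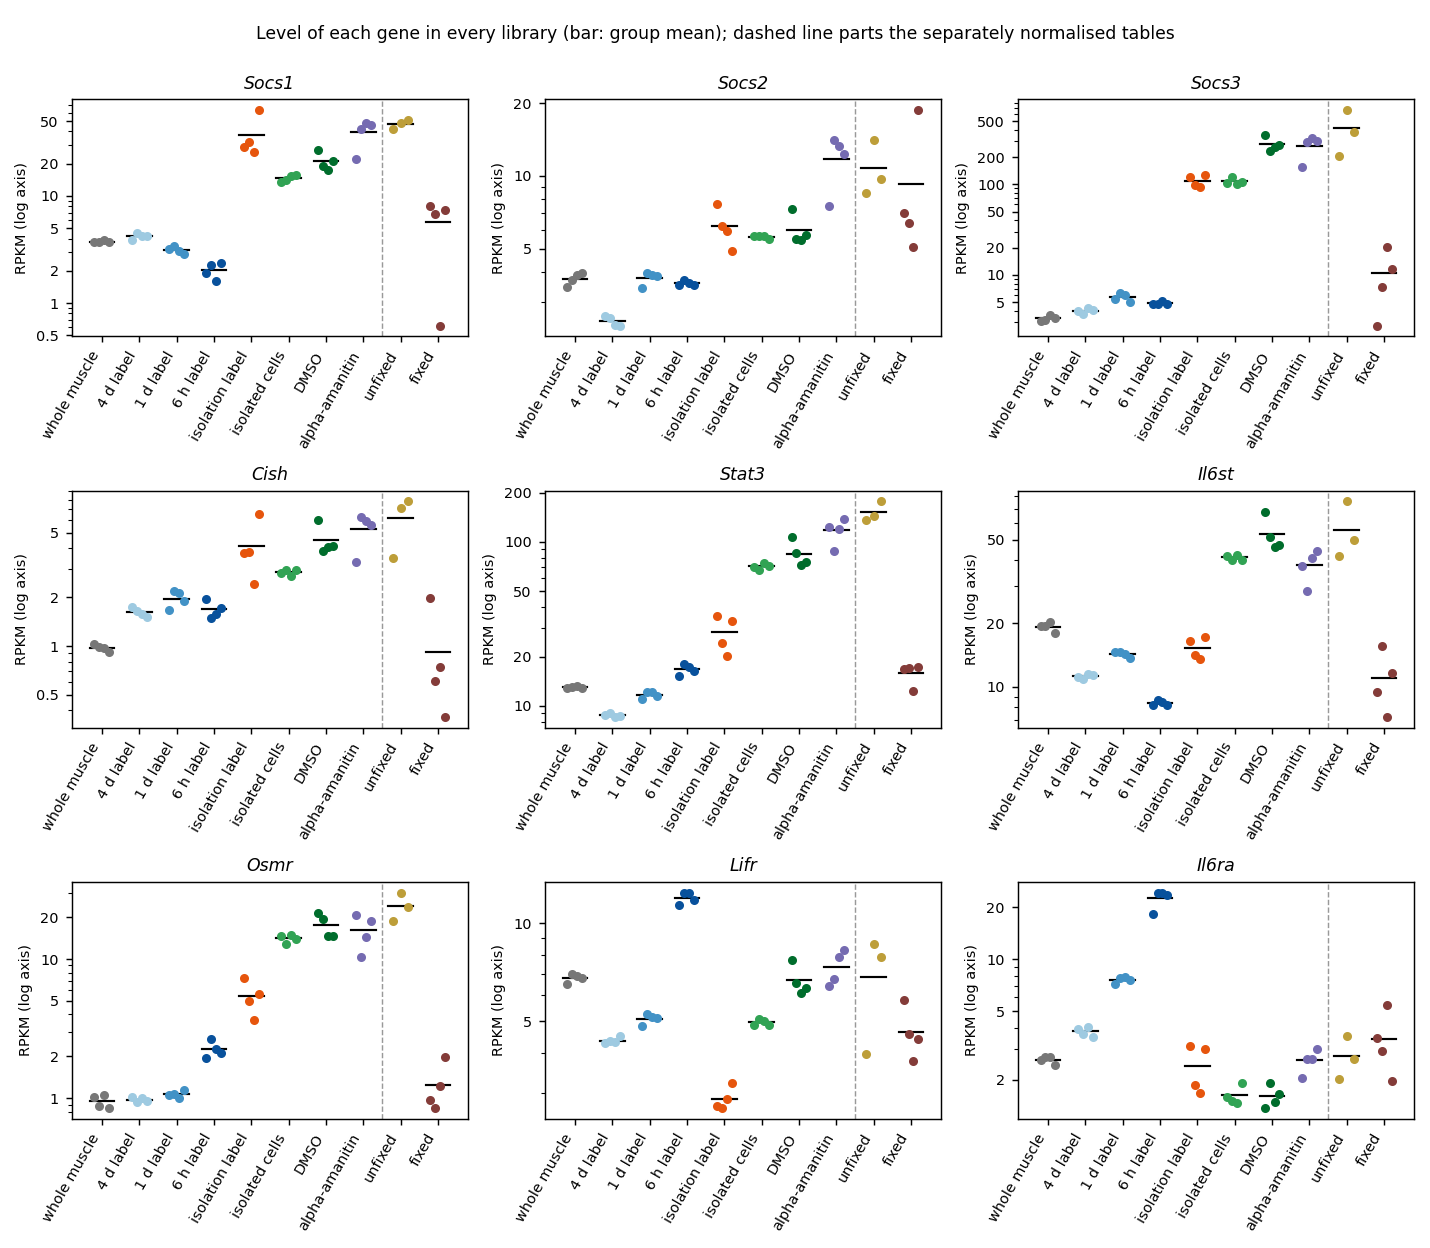
Level of each of the 9 genes in RPKM (log axis) in every library, by group, with the group mean as a bar; the dashed line parts the table of labelling and inhibition from the separately normalised table of fixation. Socs3, Stat3 and Osmr are lower in fixed than in unfixed cells without overlap, and Il6ra and Lifr reach their highest levels of the larger table in the 6 h label, at 22.6 and 12.0 RPKM on average.

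Isolated stem cells held more Socs, Stat3, Il6st and Osmr RNA than whole muscle did, and less Lifr and Il6ra. Socs3 was at 104, 120, 101 and 106 RPKM in isolated cells and at 3.10, 3.19, 3.59 and 3.31 RPKM in whole muscle, a 28.5-fold difference (log2 difference 4.83 ± 0.058 (SE), limma adjusted p = 2.59e-15). Osmr was at 14.7, 12.8, 15.0 and 13.9 RPKM in isolated cells and 1.03, 0.882, 1.05 and 0.852 RPKM in muscle, a 10.1-fold difference (limma adjusted p = 1.52e-13). The spread within each group was far smaller than these gaps, and the coefficient of variation of Socs3 was 7.81% in isolated cells and 6.39% in muscle.

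Stat3 was 5.31-fold higher in isolated cells, at 71.1 ± 3.15 against 13.0 ± 0.185 RPKM (SD, n = 4 each). Socs1 was 3.56-fold higher (14.7 ± 1.07 against 3.75 ± 0.0772 RPKM), and Cish was 2.27-fold higher (2.85 ± 0.120 against 0.976 ± 0.0474 RPKM). Il6st was 2.10-fold higher (41.2 ± 1.23 against 19.3 ± 1.00 RPKM), and Socs2 was 1.43-fold higher (5.59 ± 0.0785 against 3.75 ± 0.221 RPKM). Each of these 5 genes passed the threshold, with limma adjusted p values from 2.30e-14 for Stat3 to 4.15e-07 for Socs2.

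The LIF and IL-6 receptor chains had the opposite sign. Lifr had 4.88, 5.08, 5.02 and 4.86 RPKM in isolated cells and 6.50, 6.96, 6.90 and 6.81 RPKM in muscle, 1.34-fold lower (limma adjusted p = 6.59e-07). Il6ra had 1.59, 1.51, 1.46 and 1.92 RPKM in isolated cells and 2.59, 2.71, 2.70 and 2.42 RPKM in muscle, 1.47-fold lower (limma adjusted p = 9.17e-06). Both directions turned over with library sizes from all reads, to log2 differences of 1.08 and 0.76, and that scaling moved the median of all genes by 1.41.

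In this comparison 95.3% of 14813 genes were called, 48.8% higher and 46.5% lower, so 9 of 9 called is near the background and only the sizes set the genes apart from each other. Sizing libraries by all reads turned the 7227 higher and 6884 lower calls over all genes into 10847 and 3384. All 15 fibre markers were lower in isolated cells, and whole muscle holds many cell types besides satellite cells. The isolated-cell and whole-muscle libraries also serve in the comparisons below, which are therefore not independent of this one.

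RNA made during the isolation differed from the total RNA of the same kind of cell in 5 of the 9 genes, a share near the 59.5% of all 14863 genes that were called. The comparison asks which transcripts of isolated cells were synthesised while the cells were prepared. Socs1 was at 28.8, 31.8, 25.7 and 63.0 RPKM in the isolation label and at 13.5, 14.1, 15.3 and 15.8 RPKM in isolated cells. It was 2.34-fold higher in the label (limma adjusted p = 0.00230), with no overlap and 1 labelled library far above the other 3. Socs1 rested on 100 to 437 reads per labelled library, and with library sizes from all reads its call ended (log2 difference 0.55, limma adjusted p = 0.0929).

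In the deposited scaling, Socs3 had a similar mean RPKM in labelled and total RNA. It had 119, 97.7, 93.5 and 127 RPKM in the isolation label and 108 ± 8.42 RPKM (SD, n = 4) in isolated cells. It was not called (log2 difference 0.011 ± 0.12 (SE), limma adjusted p = 0.948). Socs2, Cish and Il6ra were not called either, at log2 differences of 0.12, 0.39 and 0.43. Their limma adjusted p values were 0.542, 0.210 and 0.130. With library sizes from all reads, Socs3 and Socs2 were called lower in the label, at -0.69 and -0.54 (limma adjusted p = 0.00421 and 0.0225).

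Stat3 and 3 receptor genes were lower in the isolation label. Il6st was at 16.4, 14.2, 13.6 and 17.3 RPKM in labelled and 42.0, 40.1, 42.4 and 40.1 RPKM in total RNA, 2.64-fold lower (limma adjusted p = 6.86e-06). Stat3 was at 35.6, 24.2, 20.2 and 32.9 RPKM in labelled RNA against 71.1 ± 3.15 in total RNA, 2.55-fold lower (limma adjusted p = 1.44e-04). Osmr was 2.54-fold lower (5.39 ± 1.53 against 14.1 ± 0.970 RPKM) and Lifr 1.61-fold lower (2.89 ± 0.242 against 4.96 ± 0.106 RPKM), with limma adjusted p values of 2.67e-04 and 0.00258. None of these 4 genes had overlapping groups. The share of all genes without overlap was not counted, so this does not set the 4 apart from other genes.

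Over all genes, 29.8% were higher and 29.7% lower, against 1 and 4 of the 9. The 4426 higher and 4417 lower calls over all genes became 3005 and 7237 with library sizes from all reads. The summed fibre level was 10634 to 43107 RPKM in the isolation label and 89.9 to 320 in isolated cells, with all 15 fibre markers higher, and the summed satellite cell level was 558 to 975 against 1385 to 1412 RPKM. The part of these transcripts in the difference was not tested.

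All 9 genes differed between the RNA labelled for 6 h in the animal and the RNA labelled during isolation, and each call held under every alternative and without any 1 library. The suppressors and Stat3 were lower in the 6 h label: Socs3 had 4.81, 4.81, 5.09 and 4.72 RPKM there against 93.5 to 127 in the isolation label, 20.3-fold lower (log2 difference -4.35 ± 0.13 (SE), limma adjusted p = 4.19e-08). Socs1 had 1.90, 2.25, 1.60 and 2.39 RPKM in the 6 h label against 25.7 to 63.0, 14.1-fold lower (limma adjusted p = 4.74e-06). Cish was 2.02-fold lower (1.68 ± 0.209 against 4.12 ± 1.73 RPKM), Stat3 1.63-fold lower (16.7 ± 1.16 against 28.2 ± 7.23 RPKM) and Socs2 1.61-fold lower (3.60 ± 0.0744 against 6.18 ± 1.14 RPKM). Their limma adjusted p values were 0.00661, 0.00914 and 0.00395.

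The receptors split. Osmr was 2.10-fold lower in the 6 h label (2.25 ± 0.311 against 5.39 ± 1.53 RPKM), and Il6st was 1.78-fold lower (8.38 ± 0.225 against 15.4 ± 1.78 RPKM), with limma adjusted p values of 0.00171 and 4.29e-04. Il6ra had 18.3, 24.3, 24.3 and 23.5 RPKM in the 6 h label and 3.13, 1.86, 1.67 and 3.0 RPKM in the isolation label, 8.09-fold higher (limma adjusted p = 3.84e-06). The level of Il6ra in the isolation label rested on 16 to 108 reads per library. Lifr had 11.3, 12.4, 12.4 and 11.8 RPKM against 2.74, 2.71, 2.88 and 3.24 RPKM, 3.68-fold higher (limma adjusted p = 3.13e-06). The 2 groups did not overlap in any of the 9 genes. The share of all genes without overlap was not counted, so this does not set the 9 apart from other genes.

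Over all 13003 genes, 24.4% were lower and 38.5% higher in the 6 h label (63.0% in either direction), against 7 and 2 of the 9. The 5010 higher and 3178 lower calls became 2577 and 4628 when libraries were sized by all reads. The libraries differ in the tissue the RNA was pulled down from, muscle or purified cells, and the fibre markers differed with it (14 of 15 higher in the 6 h label), so the tissue and the setting of the label cannot be told apart.

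**Figure D2:**
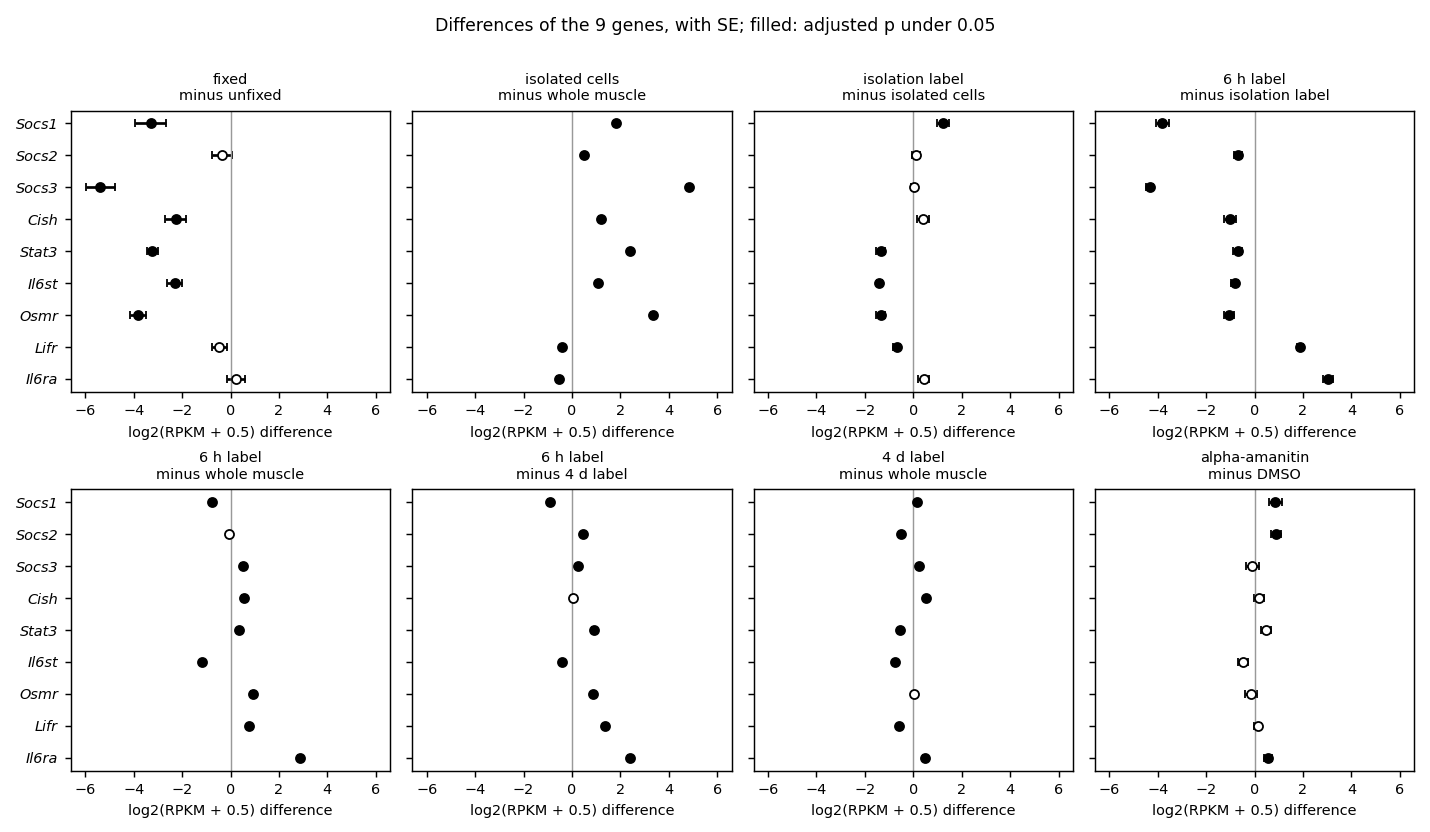
Difference of each gene between 2 groups on the log2(RPKM + 0.5) scale (x axis) with its standard error, for the 8 comparisons; filled points have a limma adjusted p under 0.05. Socs3 spans -5.38 in fixed against unfixed cells to 4.83 in isolated cells against whole muscle, and Il6ra and Lifr are the only 2 genes to the right of 0 in the 6 h label against the isolation label.

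Against the total RNA of whole muscle, the 6 h label held more Il6ra, Osmr, Lifr, Cish, Socs3 and Stat3 and less Il6st and Socs1. The comparison asks which transcripts are enriched by the pull-down after a short label. Il6ra was 7.40-fold higher, at the 4 labelled levels given above against 2.59, 2.71, 2.70 and 2.42 RPKM in muscle (log2 difference 2.89 ± 0.080 (SE), limma adjusted p = 2.86e-12). Osmr had 1.94, 2.66, 2.28 and 2.11 RPKM in the label against 0.852 to 1.05 in muscle, 1.88-fold higher (limma adjusted p = 1.91e-07). Lifr was 1.71-fold higher (12.0 ± 0.512 against 6.79 ± 0.206 RPKM), with a limma adjusted p of 1.58e-09.

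Cish was 1.48-fold, Socs3 1.41-fold and Stat3 1.28-fold higher in the 6 h label than in muscle, with limma adjusted p values of 4.53e-06, 7.92e-07 and 1.18e-05. Socs3 was at 4.86 ± 0.160 RPKM in the label and 3.30 ± 0.211 in muscle, both far below its level in isolated cells. Il6st was 2.23-fold lower (8.38 ± 0.225 against 19.3 ± 1.00 RPKM) and Socs1 1.69-fold lower (2.03 ± 0.357 against 3.75 ± 0.0772 RPKM), with limma adjusted p values of 3.92e-11 and 2.27e-06. Socs2 was not called (3.60 ± 0.0744 against 3.75 ± 0.221 RPKM, limma adjusted p = 0.333). Other scalings called it in opposite directions. It was higher with library sizes from all reads (log2 difference 0.25, limma adjusted p = 3.24e-04) and lower with median-of-ratios factors (-0.24, limma adjusted p = 1.94e-04).

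Of 11746 genes, 90.0% were called, 45.6% higher and 44.4% lower, so 8 of 9 called is again near the background. With library sizes from all reads, 5357 higher and 5220 lower calls became 6972 and 3574, and with median-of-ratios factors 4397 and 6201. All 15 fibre markers were lower in the 6 h label than in muscle, at a summed 82605 to 90367 against 151770 to 159630 RPKM, and the summed satellite cell level was 150 to 170 against 61.9 to 64.9 RPKM.

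The length of the label set the genes in different orders. Il6ra fell in steps without overlap from 18.3 to 24.3 RPKM at 6 h through 7.15 to 7.90 at 1 d to 3.53 to 4.04 at 4 d, and whole muscle lay below at 2.42 to 2.71 RPKM. Stat3 (16.7, 11.7 and 8.77 RPKM at 6 h, 1 d and 4 d) and Lifr (12.0, 5.09 and 4.36 RPKM) had the same order over the 3 label times, also without overlap, but whole muscle lay above both 1 d and 4 d in Stat3 (13.0 RPKM) and in Lifr (6.79 RPKM). Il6st and Socs1 did not: Il6st was highest at 1 d (14.3 RPKM, against 8.38 at 6 h and 11.2 at 4 d), and Socs1 was lowest at 6 h (2.03, 3.13 and 4.20 RPKM). These levels are descriptions over groups of 4 libraries, and the 1 d group was not tested.

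Between 6 h and 4 d, Il6ra was 5.34-fold, Lifr 2.57-fold, Stat3 1.86-fold and Osmr 1.85-fold higher at 6 h. Their limma adjusted p values were 6.84e-11, 3.40e-11, 3.18e-09 and 2.20e-07. Socs2 was 1.37-fold higher (limma adjusted p = 1.17e-06), and Socs3 1.19-fold (limma adjusted p = 4.33e-04), a call that ended with all groups in 1 fit (limma adjusted p = 0.168). Socs1 was 1.87-fold and Il6st 1.32-fold lower at 6 h, with limma adjusted p values of 9.77e-07 and 3.73e-07, and Cish was not called (1.68 ± 0.209 against 1.62 ± 0.10 RPKM, limma adjusted p = 0.619). Of 11975 genes, 88.7% were called, 52.7% higher and 36.1% lower.

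After 4 d of label, the genes lay close to whole muscle. Socs1, Socs3, Cish and Il6ra were 1.11-, 1.19-, 1.44- and 1.39-fold higher in the label, with limma adjusted p values of 0.0129, 0.00101, 1.36e-06 and 3.09e-06. Il6st, Lifr, Stat3 and Socs2 were 1.69-, 1.5-, 1.45- and 1.41-fold lower, with limma adjusted p values of 4.10e-09, 2.80e-08, 1.48e-08 and 1.27e-06. Osmr was not called, at 0.980 ± 0.0378 against 0.953 ± 0.101 RPKM (limma adjusted p = 0.671). Of 11347 genes, 84.5% were called, 28.1% higher and 56.4% lower, and 3189 higher and 6397 lower calls became 4475 and 5017 with library sizes from all reads. The Socs1 and Socs3 calls ended with all groups in 1 fit (limma adjusted p = 0.573 and 0.188), and that of Socs1 also with limma-voom (adjusted p = 0.0650).

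With alpha-amanitin during the isolation, 0 of the 9 genes were called lower than with DMSO by limma in the scaling of the deposited values. The count was also 0 by limma-voom, which used that same scaling. Of all 13710 genes, 10.3% were called lower by limma, a share at which 0 of 9 does not set the genes apart. Among the 9, Il6st came nearest to a lower call by limma. Its inhibited libraries all lay below those with DMSO, at 37.3, 28.4, 40.9 and 44.3 RPKM against 67.5, 51.4, 46.0 and 47.3 RPKM (log2 difference -0.49 ± 0.21 (SE), adjusted p = 0.0766). The comparison asks how far new transcription during isolation sets RNA levels. Socs3 had 154, 291, 321 and 303 RPKM with the inhibitor and 352, 233, 259 and 270 RPKM with DMSO, overlapping groups (log2 difference -0.10 ± 0.27 (SE), limma adjusted p = 0.760). Replicate 1 was the lowest of the inhibited libraries and replicate 1 the highest of the DMSO libraries. Both also stood apart in the authors' scaling factor, at 1.54 against 0.917 to 0.980 with the inhibitor and 1.25 against 1.60 to 1.66 with DMSO. The Socs3 difference was 0.15 without the former and 0.019 without the latter, not called in either case (limma adjusted p = 0.453 and 0.956).

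Socs2, Socs1 and Il6ra were higher with alpha-amanitin, and 0 of these 3 calls held under every alternative run. Of all 13710 genes, 33.9% were called higher by limma, so 3 of 9 called higher is near the background. Socs2 had 7.48, 14.1, 13.3 and 12.4 RPKM with the inhibitor and 7.26, 5.48, 5.45 and 5.67 RPKM with DMSO, 1.87-fold higher (limma adjusted p = 0.0102). Socs1 had 22.2, 42.0, 48.0 and 46.2 RPKM against 27.1, 18.9, 17.6 and 21 RPKM, 1.80-fold higher (limma adjusted p = 0.0293), with 1 inhibited library inside the DMSO range. Il6ra had 2.06, 2.64, 2.65 and 3.01 RPKM against 1.37, 1.90, 1.48 and 1.64 RPKM, 1.47-fold higher (limma adjusted p = 0.0176). Stat3 (118 ± 21.1 against 84.8 ± 15.5 RPKM), Osmr (16.1 ± 4.63 against 17.6 ± 3.44 RPKM), Cish (5.27 ± 1.33 against 4.52 ± 1.01 RPKM) and Lifr (7.32 ± 0.902 against 6.68 ± 0.719 RPKM) were not called.

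The sign of these differences depended on the scaling. Over all 13710 genes, 33.9% were called higher and 10.3% lower (44.2% in either direction), and the median of all genes lay at 0.28 on the log2 scale. Sized by all reads, that median moved by -0.46, the calls over all genes went from 4646 higher and 1412 lower to 3223 and 4163, and 4 of the 9 genes were then called lower. Scaled to the RNA of the mitochondrial genome, whose transcription does not use RNA polymerase II, it moved by -1.36 and all 9 were called lower. In that scaling, Socs1, Socs2 and Il6ra turned to log2 differences of -0.64, -0.53 and -0.68, and the calls over all genes were 324 higher and 11149 lower. The summed fibre level was 2958 to 14910 RPKM with the inhibitor and 72.2 to 127 with DMSO, with all 15 markers higher, and its part in the differences was not tested. Leaving out 1 library ended the call of Socs1 in 6 cases, alpha-amanitin replicates 2, 3 and 4 and DMSO replicates 2, 3 and 4 (log2 difference 0.74 to 0.85, limma adjusted p = 0.0690 to 0.0910). It ended the call of Il6ra in 4 cases, alpha-amanitin replicates 2, 3 and 4 and DMSO replicate 3 (0.49 to 0.54, limma adjusted p = 0.0567 to 0.0647).

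Across the 8 groups of the larger table, 4 of the 9 genes had their highest mean in alpha-amanitin (Socs1, Socs2, Cish and Stat3), 3 in DMSO (Socs3, Il6st and Osmr) and 2 in the 6 h label (Lifr and Il6ra). In Socs3, the order was DMSO (278 RPKM), alpha-amanitin (267), isolation label (109), isolated cells (108), 1 d (5.67), 6 h (4.86), 4 d (4.01) and whole muscle (3.30). DMSO and alpha-amanitin overlapped in range, as did the isolation label with isolated cells and 1 d with 6 h, and the other neighbours did not. DMSO-treated and isolated cells, both total RNA of stem cells, were apart in Socs3 (233 to 352 against 101 to 120 RPKM), a difference that was described and not tested.

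In Osmr the order was DMSO (17.6 RPKM), alpha-amanitin (16.1), isolated cells (14.1), isolation label (5.39), 6 h (2.25), 1 d (1.07), 4 d (0.980) and whole muscle (0.953). The first 3 groups overlapped with their neighbours, as did the last 3, and the other steps did not. Il6ra had the groups from muscle in the same order among themselves, but ahead of the stem cell groups. Its means were 6 h (22.6 RPKM), 1 d (7.62), 4 d (3.81), whole muscle (2.60), alpha-amanitin (2.59), isolation label (2.41), isolated cells (1.62) and DMSO (1.60). From whole muscle down, each group overlapped with the next. Lifr spanned the smallest range of the receptors between its highest and lowest mean, from 12.0 RPKM at 6 h to 2.89 in the isolation label.

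The level of Osmr over that of Lifr, both of which pair with gp130, summarised the contrast. The ratio of their RPKM was 3.73 ± 0.871 in unfixed cells (SD, n = 3, range 3.01 to 4.69) and 0.281 ± 0.130 in fixed cells (n = 4, range 0.166 to 0.446). It was 2.85 in isolated cells, 2.62 with DMSO, 1.88 in the isolation label and 2.22 with alpha-amanitin. In the muscle-derived groups it was 0.187 at 6 h, 0.210 at 1 d, 0.225 at 4 d and 0.141 in total RNA. Every library of unfixed stem cells, total or labelled during isolation, had a higher RPKM of Osmr than of Lifr, and every fixed, whole-muscle or in vivo labelled library a lower one. A ratio of 1 need not mean equal amounts of the 2 RNAs, so the ratio serves to compare groups. The pair was put together after the values were seen, so the ratio is a description with no test.

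**Figure D3:**
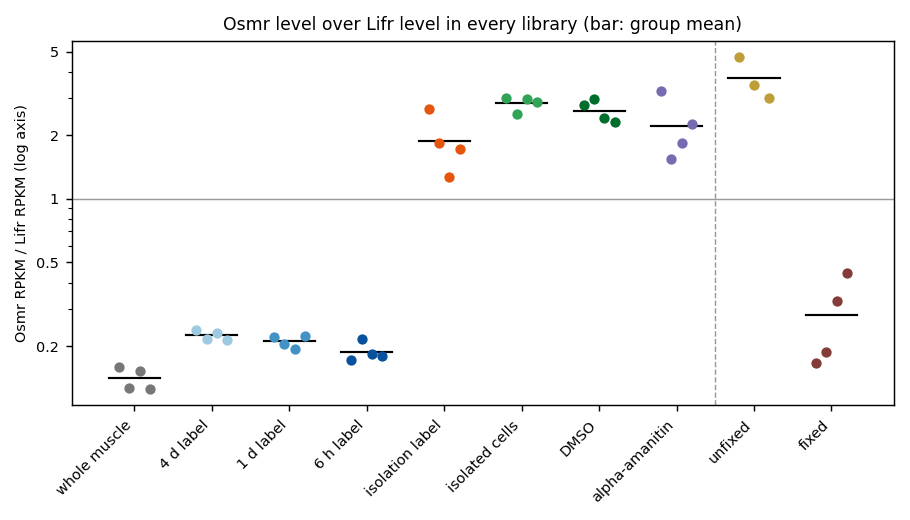
Ratio of Osmr RPKM to Lifr RPKM (log axis) in every library, by group, with the group mean as a bar; the horizontal line marks a ratio of 1 and the dashed line parts the separately normalised tables. The 4 fixed libraries (0.166 to 0.446) lie below 1 and the 3 unfixed libraries (3.01 to 4.69) above it.

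The other genes of the pathway were described from a list of 48 ligands, receptors, kinases, STATs, feedback genes and targets, of which 44 stood in both tables. This list, too, was chosen with earlier results of these data known, so its counts are descriptions. After fixation, 18 of 44 were lower and 1 was higher, against 10.8% lower and 12.2% higher of all genes, with a median log2 difference of -0.76 against 0.07 over all genes tested. Of the targets, which are induced by STAT3 among other factors, 7 of 9 were lower. Junb, an immediate early transcription factor, was at 35.5 ± 20.2 RPKM fixed and 2404 ± 395 unfixed (74.6-fold lower), and Myc at 27.3 ± 5.31 and 524 ± 149 RPKM (18.6-fold lower). Mcl1, a survival gene of the BCL2 family, was 6.6-fold lower (46.7 ± 7.07 against 312 ± 54.9 RPKM). The limma adjusted p values were 1.75e-05, 1.15e-05 and 4.88e-05.

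Of the 4 ligands measured, 3 were lower after fixation: Clcf1, a cytokine of the IL-6 family (12.5 ± 1.64 against 107 ± 6.92 RPKM, 8.27-fold, limma adjusted p = 1.80e-05), Lif and Il6, the latter 47.6-fold lower (limma adjusted p = 5.73e-04). Of 11 receptors, 2 were lower (Lepr and Ifnar2) and Prlr, the prolactin receptor, was higher. Of 10 kinases and STATs, 3 were lower (Jak1, Jak2 and Stat2), and of 10 other feedback genes, 3 (Ptpn2, Socs5 and Socs6). Of the latter, Ptpn2 is a phosphatase of JAKs and STATs, and Socs5 and Socs6 are further members of the Socs family.

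**Figure D4:**
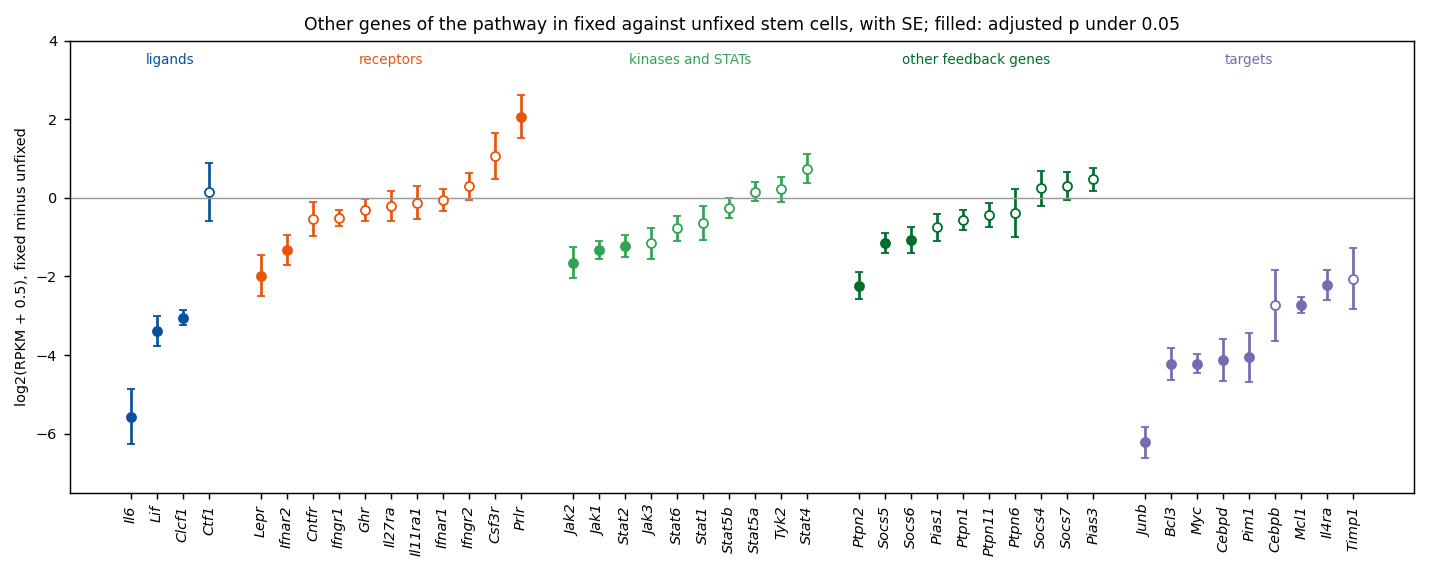
Difference of each other pathway gene between fixed and unfixed stem cells on the log2(RPKM + 0.5) scale (y axis) with its standard error, grouped by role and ordered by size within a role; filled points have a limma adjusted p under 0.05. In the targets, 7 of 9 points are filled and below 0, against 3 of 10 in the kinases and STATs.

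The same list went both ways where labelled RNA was compared. In the 6 h label against the isolation label, 16 of 41 tested genes were higher and 15 lower, with a median of 0.26 against 0.31 over all genes. Over all genes 38.5% were higher and 24.4% lower, so the count of higher genes is near the background. By role, all 10 other feedback genes were higher in the 6 h label and 8 of 9 targets and 3 of 4 ligands were lower. By adjusted p, the first were Junb, 38.8-fold lower (27.7 ± 1.82 against 1105 ± 201 RPKM), Bcl3 13.4-fold, Clcf1 13.3-fold and Myc 11.2-fold lower, with limma adjusted p values of 2.83e-08, 9.99e-07, 1.24e-06 and 1.74e-06. Il6 was 27.6-fold lower (limma adjusted p = 3.30e-06). Isolated cells against whole muscle had 24 higher and 16 lower of 42 (median 0.51 against 0.06 over all genes, of which 48.8% were higher and 46.5% lower). The smallest adjusted p values were those of Junb (35.7-fold), Myc (26.6-fold) and Clcf1 (24.5-fold), all higher, and Ifngr2, an interferon gamma receptor chain, 11.4-fold lower. Their limma adjusted p values were 4.45e-16, 4.57e-16, 1.22e-15 and 4.90e-16, and Il6 was 33-fold higher (limma adjusted p = 9.93e-15).

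In the isolation label against isolated cells, 12 of 43 were higher and 15 lower (median -0.22 against -0.07), against 29.8% and 29.7% of all genes. Il11ra1, the IL-11 receptor chain, was 2.13-fold and Cebpb, a transcription factor, 7.40-fold higher, and the kinase gene Jak1 was 1.91-fold and the leptin receptor gene Lepr 2.80-fold lower. Their limma adjusted p values were 1.01e-05, 1.04e-04, 1.36e-04 and 2.12e-04. With alpha-amanitin, 11 of 42 were higher and 3 lower than with DMSO (median 0.30 against 0.28), against 33.9% and 10.3% of all genes. Pim1, a kinase gene and STAT target, was at 70.6 ± 6.58 RPKM with the inhibitor and 6.21 ± 0.313 with DMSO, 10.6-fold higher (limma adjusted p = 9.82e-06). Cebpb was 7.48-fold and Ctf1, a cytokine of the IL-6 family, 2.84-fold higher and Lepr 2.23-fold lower, with limma adjusted p values of 0.00650, 0.0101 and 2.55e-04.

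The in vivo label was also compared over the list. The 6 h label had 20 higher and 12 lower of 37 than whole muscle (median 0.29 against 0.02; 45.6% and 44.4% of all genes), and 21 higher and 9 lower of 38 than the 4 d label (0.18 against 0.18; 52.7% and 36.1% of all genes). The 4 d label had 9 higher and 22 lower of 38 than muscle (-0.18 against -0.21; 28.1% and 56.4% of all genes). At 6 h against muscle, Socs4 (3.48-fold), Cebpd (5.58-fold) and Pias3, an inhibitor of Stat3 (2.20-fold), were higher, and Ghr, the growth hormone receptor, was 2.82-fold lower. Their limma adjusted p values were 2.56e-11, 2.98e-11, 1.02e-10 and 2.52e-12. At 6 h against 4 d, Ifngr1 (2.87-fold), Pias1 (2.92-fold), Ptpn1 (3.05-fold) and Myc (2.33-fold) were higher, with limma adjusted p values of 2.33e-12, 2.16e-11, 1.76e-10 and 8.51e-10. At 4 d against muscle, Ghr (2.67-fold), Pias1 (2.77-fold) and Ifngr1 (2.01-fold) were lower and Socs7 was 2.27-fold higher, with limma adjusted p values of 1.45e-11, 2.28e-11, 1.03e-10 and 7.05e-10.

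Genes with the most similar pattern were named for each of the 9 by Pearson correlation of log2(RPKM + 0.5) over the 32 libraries of the larger table, among 11488 genes. The libraries fall into groups that share tissue and treatment, so these values describe the order of groups and carry no p. Socs3 was closest to Iqsec3 (r = 0.996), Egr1 (0.993) and Hspa1a (0.993), the latter a heat shock gene with a near-identical copy that may share reads. Stat3 was closest to Pde4b, Clic4 and Grb10 (0.993 to 0.994), and Osmr to Sgms2, Ripk1 and Skil (0.992 to 0.995). Socs1 was closest to Vwa1, Fxyd6 and Rem1 (0.984 to 0.990), Socs2 to Herpud1, Dbn1 and Fstl3 (0.950 to 0.968), and Cish to Rarg, Kdm6b and Igf2 (0.948 to 0.957). Il6st was closest to Copa, Ttc3 and Focad (0.972 to 0.978), Lifr to Osbpl11, Zfp207 and Zmym5 (0.961 to 0.968), and Il6ra to Rabep2, Pdk4 and Tle4 (0.930 to 0.952). No gene was named for more than 1 of the 9.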

How the data were processed

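RNA was measured by sequencing in 39 libraries, with reverse transcription primed by oligo(dT), per the labels' protocols. The deposited values are RPKM made by the authors. The submitters' processing notes name mm10, STAR, Trim Galore, edgeR and featureCounts of Subread, with no versions given. RPKM times gene length and a library factor came out as whole reads within 0.1 read for all values, which gave the reads and the authors' scaling. The header of the larger table stands 1 cell left of its values, and columns were taken by position after that shift. GENCODE gave a symbol, by gene ID, to 1350 of 1488 unnamed genes of the larger table and to 468 of 555 of the other. Promoter sequences are from RefSeq (GRCm38.p6), which held windows for 8 of the 9 genes.

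Each pair of groups was fitted on log2(RPKM + 0.5) with limma 3.58.1 under R 4.3.3, its eBayes function with trend. Genes had to reach 1 RPKM in 3 or more of the libraries compared, and the threshold was a Benjamini-Hochberg adjusted p under 0.05. The fit was tested on simulated data. Alternatives were a pseudocount of 1, no filter, library sizes from all reads, median-of-ratios factors, library sizes from mitochondrially encoded genes (inhibition only), limma-voom on recovered reads, all groups in 1 fit (larger table), a replicate block and leaving out each library. Named are the 9 genes throughout, up to 4 called pathway genes per comparison by adjusted p, others that bear on a count by role, and the 3 most similar genes of each member. A gene of the pathway list is not reported here and was left out of its counts. The members and lists were chosen with earlier results of these data known. Python 3.11.15 (pandas 2.3.3, numpy 2.4.6, matplotlib 3.10.9) made tables and plots.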

Additional observations from a re-analysis of the deposited data

Results flagged for a closer look

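Of 81 sets of 4 libraries (a gene in a group), 8 held a library far from the other 3 by Dixon's criterion, which chance meets in about 1 in 20. Socs1 was at 63.0 RPKM in isolation label replicate 4, against 25.7 to 31.8 in the other 3 libraries. It was at 0.616 RPKM in fixed replicate 4, against 6.75 to 7.98. Stat3 was also low in that fixed library, at 12.3 RPKM against 16.7 to 17.3, and the library had the highest summed immune marker level of its group (1456 RPKM, against 165 to 226 in the other 3). Socs2 was at 18.7 RPKM in fixed replicate 5, against 5.09 to 7.01. DMSO replicate 1 was high in Socs2 (7.26 RPKM, against 5.45 to 5.67) and in Cish (6.02 RPKM, against 3.86 to 4.14). Socs2 was at 5.47 RPKM in isolated-cell replicate 4, against 5.62 to 5.63, a small gap in a group of little spread. Il6ra was at 18.3 RPKM in 6 h label replicate 1, against 23.5 to 24.3, and stayed above every library of every other group of the larger table.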

How the results depend on the processing

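Of 56 called differences of single genes, 374 of 389 values under other settings and 432 of 442 with a library left out kept direction and call; 10 and 10 lost the call and 5 and 0 turned sign. With library sizes from all reads, log2 differences turned sign for isolated cells against muscle in Lifr (1.08) and Il6ra (0.76), for the isolation label against isolated cells in Socs2 (-0.54), Socs3 (-0.69), Cish (-0.22) and Il6ra (-0.14), for the 6 h label against muscle in Socs2 (0.25), and for alpha-amanitin against DMSO in Cish (-0.29), Stat3 (-0.0452) and Lifr (-0.36). Lifr also turned there with median-of-ratios factors (-0.025), and mitochondrial library sizes gave -0.64 for Socs1, -0.53 for Socs2, -1.20 for Cish, -1.03 for Stat3, -1.3 for Lifr and -0.68 for Il6ra. With a library left out, uncalled values crossed 0: Socs3 (-0.21 to 0.15) and Osmr (-0.29 to 0.036) with alpha-amanitin, Socs3 in the isolation label (-0.064 to 0.082), Cish at 6 h against 4 d (-0.020 to 0.084) and Osmr at 4 d against muscle (-0.0056 to 0.043).

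With alpha-amanitin, the genes called lower of the 9 went from 0 to 4 with library sizes from all reads, 1 with median-of-ratios factors, 9 with mitochondrial library sizes and 1 with all groups in 1 fit (0 to 1 with a library left out), and those higher from 3 to 0 with mitochondrial sizes (1 to 4 with a library left out). Higher calls in the isolation label went from 1 to 0 with library sizes from all reads and 3 with all groups in 1 fit (1 to 3 with a library left out, 3 without isolation label replicate 3). Lower calls there went from 4 to 6 with library sizes from all reads, with Socs2 and Socs3 added. Lower calls in isolated cells against muscle went from 2 to 0 with library sizes from all reads, and higher calls at 4 d against muscle from 4 to 2 with all groups in 1 fit.

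Over all genes, alpha-amanitin calls ranged with a library left out from 2317 to 7367 higher and 511 to 3293 lower, against 4646 and 1412, and fixation calls from 809 to 1821 higher and 718 to 1563 lower, against 1564 and 1387. Lower calls with alpha-amanitin were 2244 with median-of-ratios factors and 3125 with all groups in 1 fit. Without the filter, higher calls were 8452 (5357) at 6 h and 7489 (3189) at 4 d against muscle, and lower calls at 6 h against 4 d were 7220 (4317). With all groups in 1 fit, 4 d against muscle had 1883 higher and 4154 lower calls.

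Samples of the same number were not taken as pairs. The correlations of their deviations ran from -0.59 to 0.24, no comparison had all above 0.1, and in none did every sample correlate best with its own number. They were all positive at 4 d against muscle (0.041 to 0.24) and all negative with alpha-amanitin (-0.59 to -0.11), so these values cannot exclude a pairing. With the replicate block, the alpha-amanitin calls were 1678 higher and 300 lower over all genes and 0 of the 9 genes higher, and fixation calls were 845 higher and 980 lower. Cish after fixation was then -1.80 (limma adjusted p = 0.0927), and no other call of the 9 genes ended. Depth limits the isolation label, where Il6ra rested on 16 to 108 and Cish on 63 to 249 reads per library.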
